A study of Homo sapiens with 12 samples.

Results

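Transcripts of 9 genes of MHC class I antigen presentation were followed on 12 Illumina HT-12 v4 arrays of Huh7, a widely used cell line from a human liver tumour. The genes are HLA-B, HLA-C, HLA-E, HLA-F, B2M, TAP1, TAP2, TAPBP and NLRC5, and every probe that the platform annotation gives to one of these symbols was taken. This gave 9 of 20046 genes with a probe of their own, and 15 of the 47323 probes on the array. Of these 15, 7 probes of 6 genes were detected on enough arrays to be tested, and 8 probes, among them all those of HLA-C, TAP2 and NLRC5, were not. The cells had been given recombinant human erythroferrone (human ERFE, 4 arrays), recombinant mouse erythroferrone (mouse ERFE, 4 arrays) or no protein (untreated, 4 arrays). Erythroferrone is a hormone of red cell precursors that binds bone morphogenetic proteins and lowers hepcidin. Both proteins were used at 10 µg/ml, and all RNA was taken at 24 h. The question for these genes was whether either protein altered their transcripts and whether the proteins of the different species differed. No vehicle or control protein group is among the 12 arrays, so an effect of ERFE and one of adding a protein preparation cannot be told apart. Separate cultures are not stated for the arrays within a group, and the p-values below therefore measure an array-to-array spread that may be technical. Both of the last mouse ERFE arrays are titled replicate 3, and their title codes are used to tell them apart (3-A4 and 3-B4).

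MHC class I molecules carry peptides from inside a cell to its surface, where cytotoxic T cells read them. Proteasomes cut proteins into peptides, the TAP1 and TAP2 transporter carries the peptides into the endoplasmic reticulum, and tapasin (TAPBP) helps to load them onto a heavy chain bound to beta-2-microglobulin (B2M). Interferons raise most of these genes through STAT and IRF factors, and NLRC5 is a transcriptional co-activator of class I genes. Hepatocytes are known to hold low levels of class I molecules unless exposed to interferon.

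The promoters of the genes that varied most between arrays (HLA-B, TAP1 and HLA-F) and of steadier ones (B2M and TAPBP) are printed because class I genes are known to be controlled there by interferon and NF-kB factors. Each sequence is from RefSeq on build GRCh38.p14 and runs from 250 bases before the gene's start to 50 after it, in the direction of the gene. Capitals mark matches, on either strand, to AANNGAAA, a short form of the interferon response element. The HLA-B window is chr6:31357130-31357429 on the minus strand, the TAP1 window chr6:32853655-32853954 on the minus strand and the HLA-F window chr6:29723184-29723483 on the plus strand. The B2M window is chr15:44711267-44711566 on the plus strand, and the TAPBP window is chr6:33314029-33314328 on the minus strand.
HLA-B: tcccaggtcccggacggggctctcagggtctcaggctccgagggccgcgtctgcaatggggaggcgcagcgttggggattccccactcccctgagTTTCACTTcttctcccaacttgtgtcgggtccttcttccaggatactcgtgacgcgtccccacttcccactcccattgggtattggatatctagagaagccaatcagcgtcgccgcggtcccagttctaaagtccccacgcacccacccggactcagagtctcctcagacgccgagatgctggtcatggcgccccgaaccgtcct
TAP1: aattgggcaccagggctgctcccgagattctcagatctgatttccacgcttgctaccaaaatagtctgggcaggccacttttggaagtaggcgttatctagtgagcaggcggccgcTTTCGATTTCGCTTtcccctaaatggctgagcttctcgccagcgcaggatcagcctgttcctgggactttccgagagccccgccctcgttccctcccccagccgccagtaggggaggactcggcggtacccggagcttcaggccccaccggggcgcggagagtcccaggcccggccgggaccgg
HLA-F: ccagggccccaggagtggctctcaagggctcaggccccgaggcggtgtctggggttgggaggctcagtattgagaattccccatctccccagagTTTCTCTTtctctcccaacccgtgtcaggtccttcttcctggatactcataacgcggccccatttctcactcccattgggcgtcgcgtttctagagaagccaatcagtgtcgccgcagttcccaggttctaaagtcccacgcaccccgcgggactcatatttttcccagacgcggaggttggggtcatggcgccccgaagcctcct
B2M: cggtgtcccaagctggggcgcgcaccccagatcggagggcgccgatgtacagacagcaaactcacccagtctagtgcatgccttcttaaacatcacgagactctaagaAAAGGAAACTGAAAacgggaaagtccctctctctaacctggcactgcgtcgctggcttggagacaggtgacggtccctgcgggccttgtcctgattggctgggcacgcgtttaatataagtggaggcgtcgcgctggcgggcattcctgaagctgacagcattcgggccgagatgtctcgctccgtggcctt
TAPBP: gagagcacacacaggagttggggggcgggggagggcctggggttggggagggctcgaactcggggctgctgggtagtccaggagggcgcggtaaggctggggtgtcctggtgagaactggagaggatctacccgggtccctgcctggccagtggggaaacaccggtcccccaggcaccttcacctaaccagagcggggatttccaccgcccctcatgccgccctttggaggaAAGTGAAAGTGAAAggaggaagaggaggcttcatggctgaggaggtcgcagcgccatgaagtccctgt
RefSeq's table held 7 of the 9 members (TAP1 in 2 entries, of which the upstream one was used), and HLA-E and NLRC5 are named only. All 7 held AANNGAAA, as did 22.8% of 35116 promoters of the same length. The longer form, GAAA followed after any 2 bases by another GAAA, was in 5 of the 7 (HLA-F, B2M, TAP1, TAP2 and TAPBP) and in 3.57% of all promoters, and it holds the short form within it. An NF-kB type motif (GGG, any 2 bases, TT, any base, CC, on either strand) was in HLA-B, B2M, TAP1 and TAPBP and in 5.68% of all promoters, and the CCAAT box was in HLA-B, HLA-C, HLA-F, B2M and TAP1 and in 34.6%. Both the genes whose signal varied and the steady ones therefore held matches, and a match is a run of letters, not a shown binding site.

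Levels below are log2 signals after background correction and quantile normalization, and a probe counts as detected on an array where its deposited detection p is under 0.05. Arrays detected 34.5% to 39.1% of their probes. All 10 measured genes of a hepatocyte and hepatoma list, TTR, SERPINA1, APOB and TF among them, were detected on every array. The list mean, here and below taken over all tested probes of a list, was 12.94 to 13.30. All 5 bone morphogenetic protein targets listed had lower values with each protein. Of them, 5 with human ERFE and 4 with mouse ERFE had a limma adjusted p under 0.05. Among all probes tested, 0.0644% and 0.0858% were lower at that threshold. The target outside it was ID2 with mouse ERFE (-0.56, limma adjusted p = 0.117). HAMP, the hepcidin gene, had log2 differences of -1.84 with human ERFE and -1.79 with mouse ERFE. It was detected on 6 arrays, and its means of 5.16 with human ERFE and 5.21 with mouse ERFE are near background. Arrays stood apart in transcripts of MHC class II, the peptide-presenting molecules of professional antigen-presenting cells. The mean log2 signal of 13 class II probes was 7.69, 6.24, 7.57 and 6.30 on human ERFE arrays 1 to 4. It was 8.34, 6.43, 6.12 and 6.15 on mouse ERFE arrays 1, 2, 3-A4 and 3-B4, and 8.34, 8.75, 7.99 and 5.72 on untreated arrays 1 to 4. It was thus above 7 on 2 human ERFE, 1 mouse ERFE and 3 untreated arrays, called here the 6 arrays high in class II, with no array between 6.43 and 7.57. The member differences below are also given without them. In bulk RNA such as this, more cells of a type and more RNA per cell cannot be told apart.

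HLA-B, a classical heavy chain that presents peptides to cytotoxic T cells, was near the detection limit and differed widely between arrays of the same group. Its probe (ILMN_1778401) had log2 signals of 5.99, 5.56, 6.06 and 4.99 in human ERFE cells, 6.86, 5.08, 4.99 and 4.92 in mouse ERFE cells, and 6.54, 7.40, 6.60 and 4.69 in untreated cells, in the array order given above. It was detected on 3 human ERFE, 1 mouse ERFE and 3 untreated arrays. The groups overlapped, since untreated array 4 was below detection while the other 3 untreated arrays lay among the 4 highest. The range over the 12 arrays was 2.71 on the log2 scale, or 6.55-fold, with the lowest array below detection. On the 6 arrays high in class II, HLA-B lay between 5.99 and 7.40, and on the other 6 between 4.69 and 5.56.

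HLA-E, a non-classical heavy chain that presents leader peptides of other class I molecules to NK cell receptors, was detected on all 12 arrays. Its log2 signals (ILMN_1765258) were 8.06, 7.85, 7.90 and 7.77 in human ERFE cells, 8.03, 7.81, 7.95 and 7.84 in mouse ERFE cells, and 8.06, 8.38, 8.09 and 7.70 in untreated cells. The groups overlapped, with the highest and the lowest value both in untreated cells. HLA-F, a non-classical heavy chain that is held largely inside cells, had 5.54, 5.23, 5.85 and 5.65 in human ERFE cells, 6.39, 5.52, 5.45 and 5.38 in mouse ERFE cells, and 6.25, 6.0, 5.79 and 5.30 in untreated cells at the probe tested (ILMN_2186806). Its highest value was on mouse ERFE array 1 and its lowest on human ERFE array 2, and it was detected on 8 arrays. A second HLA-F probe (ILMN_1762861), assigned to another transcript of the gene, was detected only on mouse ERFE array 1 (6.02) and untreated array 3 (5.80). It lay between 4.86 and 5.25 on the other 10 arrays.

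HLA-C, the classical heavy chain that is a main ligand of inhibitory NK cell receptors, was below the detection limit on most arrays. Of its 2 probes, 1 (ILMN_1721113) was detected on mouse ERFE array 2 and untreated array 1 and ranged from 4.75 to 5.51, and the other (ILMN_2150787) was detected on 0 of 12 arrays. Class I genes are alike and highly polymorphic, and the probe sequences were not used here. Whether each probe reads 1 gene alone, and whether it matches the alleles of Huh7 cells, was not tested.

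B2M, the light chain shared by all class I molecules, was detected on all 12 arrays at both probes, with a range of 0.30 and 0.19 on the log2 scale. The first probe (ILMN_1725427) had log2 signals of 13.21, 13.12, 13.36 and 13.05 in human ERFE cells, 13.24, 13.17, 13.06 and 13.32 in mouse ERFE cells, and 13.21, 13.11, 13.15 and 13.25 in untreated cells. These overlapped fully between groups. The second probe (ILMN_2148459) had 12.33, 12.28, 12.20 and 12.20 in human ERFE cells, 12.26, 12.27, 12.24 and 12.22 in mouse ERFE cells, and 12.36, 12.32, 12.34 and 12.38 in untreated cells. Here all 4 mouse ERFE arrays lay below all 4 untreated ones, by a log2 difference of -0.10 that the first probe, at 0.02, did not show. The first probe lay between 13.11 and 13.36 on the 6 arrays high in class II and between 13.05 and 13.32 on the other 6.

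TAP1, a subunit of the peptide transporter, followed the same arrays as HLA-B. Its log2 signals (ILMN_1751079) were 5.94, 4.80, 6.16 and 4.48 in human ERFE cells, 6.87, 4.67, 4.74 and 4.79 in mouse ERFE cells, and 6.27, 7.01, 6.34 and 4.73 in untreated cells. It was detected on exactly the 6 arrays high in class II, where it lay between 5.94 and 7.01, against 4.48 to 4.80 on the other 6. The range over 12 arrays was 5.75-fold, its low end again below detection. TAP2, the partner subunit, was detected on mouse ERFE array 1 at 1 of its 2 probes (ILMN_1759250, 4.82 to 5.38 over the 12 arrays) and on 0 arrays at the other. TAPBP, which encodes tapasin, was detected on every array at the probe tested (ILMN_1742450), with 7.10, 7.24, 7.36 and 7.27 in human ERFE cells, 6.87, 7.08, 7.22 and 7.31 in mouse ERFE cells, and 7.05, 7.54, 7.43 and 7.30 in untreated cells. Its lowest value was on mouse ERFE array 1, the array with the highest TAP1 value of its group. Its highest was on untreated array 2, which had the highest TAP1 value of all, and Pearson's r with TAP1 was 0.002. Of the other TAPBP probes, assigned to other transcripts, 1 was detected on a single human ERFE array and 1 on none. NLRC5, the class I co-activator, was detected on 0 of 12 arrays (ILMN_1716704, 4.63 to 5.11).

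**Figure D1:**
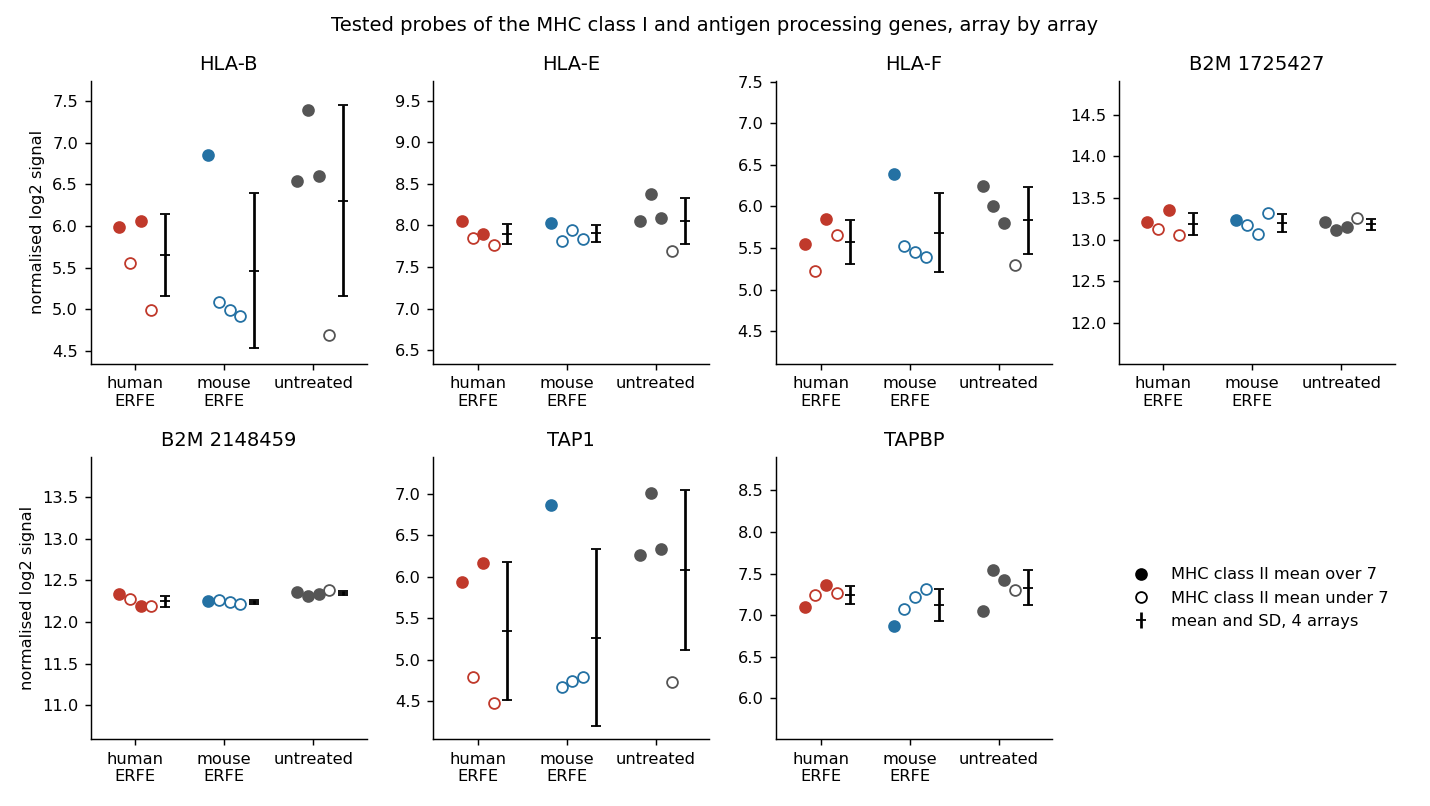
Log2 signal of each tested probe on every array, by group (human ERFE, mouse ERFE, untreated), with filled points for the arrays whose MHC class II mean is above 7, open points for the others, and a black mark with a bar for the group mean and SD of 4 arrays. HLA-B and TAP1 spread over 2.71 and 2.52 log2 units with overlapping groups, while the B2M probes spread over 0.30 and 0.19.

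The members fell into those that varied between arrays of a group far more than most probes and those that did not. The residual SD, the spread between arrays within groups, was 0.90 for HLA-B and 0.96 for TAP1, at percentiles 99.7 and 99.8 of all 18646 tested probes, whose median was 0.197. HLA-F had 0.39, at the 95th percentile. HLA-E (0.18) and TAPBP (0.18) were near the middle, at percentiles 45.1 and 42.0. The B2M probes had 0.106 and 0.0441, at percentiles 13.6 and 0.166, the second of which is near the low end. Spread depends on a probe's brightness, and among the 500 tested probes nearest in mean signal the percentiles were 99.8 for HLA-B, 99.2 for TAP1, 88.2 for HLA-F, 58.4 for HLA-E and 36.4 for TAPBP. The first B2M probe stood at percentile 60 of such probes, near the middle, and the second at 0.6.

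Human ERFE against untreated cells gave 0 of 7 member probes with an adjusted p under 0.05 (limma, Benjamini-Hochberg over 18646 probes), where 17 probes or 0.0912% of all tested passed (0.0268% higher and 0.0644% lower). Under an unadjusted p of 0.05 there were 0 of 7 members, against 6.64% of all probes. HLA-B averaged 5.65 ± 0.49 in human ERFE cells and 6.31 ± 1.15 in untreated cells (SD, n = 4 each), which differ by -0.66 on the log2 scale (95% confidence interval -1.83 to 0.52, limma adjusted p = 0.883). TAP1 averaged 5.35 ± 0.83 in human ERFE cells and 6.09 ± 0.96 in untreated cells (SD, n = 4 each), a difference of -0.74 (interval -1.99 to 0.51, limma adjusted p = 0.874). These intervals are wide enough to hold a difference of more than 1 log2 unit as well as none. HLA-F differed by -0.27 (interval -0.79 to 0.26), HLA-E by -0.16 (-0.44 to 0.12) and TAPBP by -0.09 (-0.36 to 0.18). The B2M probes differed by 0.00 (-0.19 to 0.20) and -0.10 (-0.25 to 0.05), the narrowest intervals among the members. The median over the 7 probes was -0.16, against 0.00 over all tested probes, and 6 of 7 values were below 0. The human ERFE and untreated arrays overlapped for all 7 (non-overlap in 3.74% of all probes). The sizes for HLA-B rest on single untreated arrays, being -0.29 without untreated array 2 and -1.20 without untreated array 4. For TAP1 the same omissions gave -0.43 and -1.19, for HLA-E -0.05 and -0.28, and 0 members passed under either.

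Mouse ERFE against untreated cells also gave 0 of 7 member probes with an adjusted p under 0.05 (limma), where 23 probes or 0.123% of all tested passed (0.0375% higher and 0.0858% lower). At an unadjusted p under 0.05 the members again numbered 0 of 7, against 10.7% of all probes. HLA-B averaged 5.46 ± 0.93 in mouse ERFE cells and 6.31 ± 1.15 in untreated cells (SD, n = 4 each), a difference of -0.84 (interval -2.02 to 0.34, limma adjusted p = 0.647). TAP1 averaged 5.27 ± 1.07 in mouse ERFE cells and 6.09 ± 0.96 in untreated cells (SD, n = 4 each), a difference of -0.82 (interval -2.07 to 0.44, limma adjusted p = 0.691). TAPBP differed by -0.21 (-0.48 to 0.06), HLA-E by -0.15 (-0.42 to 0.13) and HLA-F by -0.15 (-0.67 to 0.38). The first B2M probe differed by 0.02 (-0.18 to 0.21). The second, the 1 member of 7 whose groups did not overlap, had -0.10 (-0.25 to 0.05, limma adjusted p = 0.669), and 6.1% of all probes did not overlap in this comparison. The median over the 7 was -0.15, against 0.00 over all probes, with 6 of 7 values below 0. Both comparisons use the same untreated arrays, so their like signs are not separate evidence. Without untreated arrays 2 and 4 in turn HLA-B had -0.48 and -1.38, and without mouse ERFE array 1, the only one of its group with HLA-B and TAP1 detected, TAP1 had -1.35. HLA-F had -0.01 without untreated array 1 and -0.38 without mouse ERFE array 1, and HLA-E -0.04 and -0.27 without untreated arrays 2 and 4, with 0 members passing in each case.

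Human ERFE against mouse ERFE gave 0 of 7 member probes that passed (limma), against 1 probe or 0.00536% of all tested, and 0 of 7 had an unadjusted p under 0.05, against 5.01% of all probes. HLA-B was 0.18 higher in value with human ERFE (interval -0.99 to 1.36), TAP1 0.08 (-1.18 to 1.33) and TAPBP 0.12. HLA-E differed by -0.01, HLA-F by -0.12 and the B2M probes by -0.01 and 0.01, and every member had an adjusted p of 0.999. Arrays of the groups overlapped for all 7 (non-overlap in 2.48% of all probes). The intervals for HLA-B and TAP1 do not show that the proteins acted alike.

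**Figure D2:**
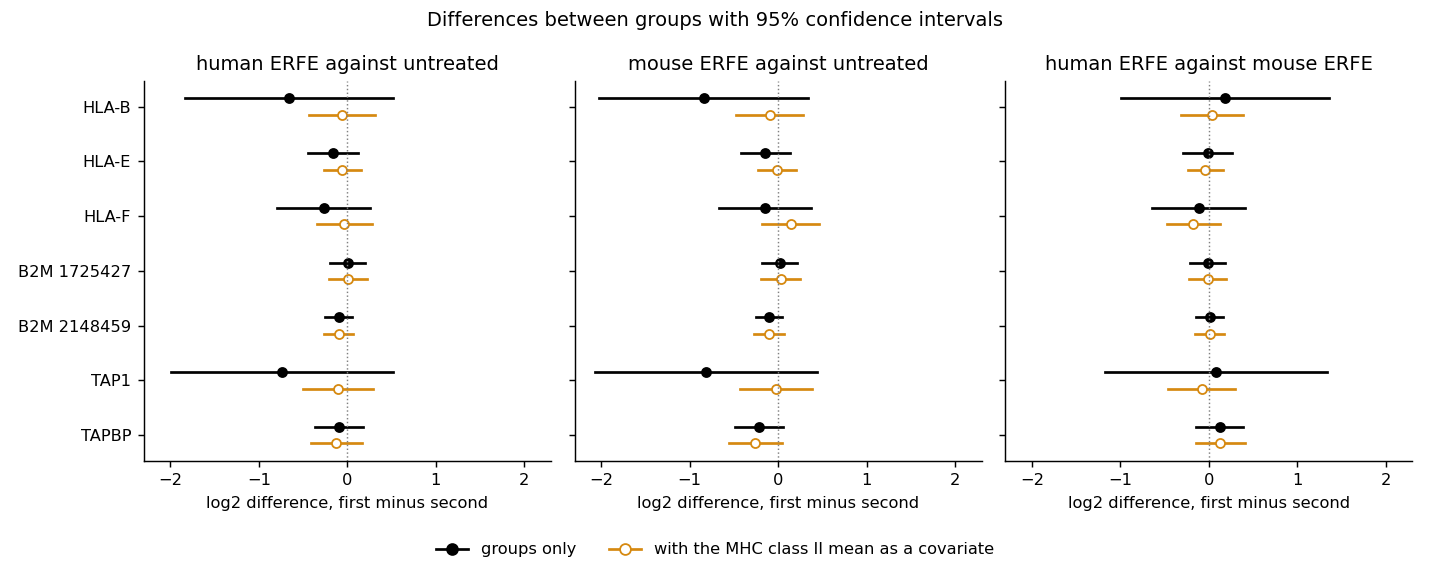
Log2 difference of each tested probe in the 3 comparisons, first group minus second, with its 95% confidence interval, from the model with groups only (filled) and with the class II mean added as a covariate (open). Every interval crosses 0, and those of HLA-B and TAP1 are the widest and narrow most with the covariate.

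The values for HLA-B, TAP1, HLA-F and HLA-E moved with the class II transcripts, and those for B2M and TAPBP did not. With the mean log2 signal of the class II probes as a covariate, the residual SD of HLA-B was 0.25 instead of 0.90, that of TAP1 0.27 instead of 0.96, that of HLA-F 0.20 instead of 0.39 and that of HLA-E 0.10 instead of 0.18. It was 0.111 instead of 0.106 for the first B2M probe and 0.18 both ways for TAPBP. In that model HLA-B differed by -0.06 (interval -0.43 to 0.31) with human ERFE and by -0.10 (-0.48 to 0.28) with mouse ERFE, both against untreated cells. TAP1 differed by -0.10 with human ERFE and -0.02 with mouse ERFE, HLA-F by -0.03 with human ERFE and 0.14 with mouse ERFE, and HLA-E by -0.05 with human ERFE and -0.01 with mouse ERFE. TAPBP had -0.13 with human ERFE and -0.26 with mouse ERFE, and the B2M probes 0.01 and -0.10 with human ERFE and 0.03 and -0.11 with mouse ERFE. Thus the HLA-B and TAP1 values lay nearer 0 once class II was in the model, while those of B2M and TAPBP moved by 0.05 or less. With a mean of leukocyte genes as the covariate instead, HLA-B had 0.01 with human ERFE and 0.06 with mouse ERFE, and TAP1 had -0.03 with human ERFE and 0.14 with mouse ERFE. Class I and class II transcripts share regulators, so a covariate of this kind can also remove a difference that belongs to both.

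Leaving out the 6 arrays high in class II left 2 human ERFE, 3 mouse ERFE and 1 untreated array, with the lone untreated array assumed to vary like the other groups. In that reduced set HLA-B differed by 0.59 with human ERFE (limma adjusted p = 1, unadjusted p = 0.0546) and by 0.31 with mouse ERFE. HLA-B was below detection on 5 of these 6 arrays, the untreated one among them, and detected on human ERFE array 2 alone, and TAP1 was detected on 0 of the 6, so the signs of these values carry no order. With human ERFE TAP1 differed by -0.09, HLA-F by 0.14 and HLA-E by 0.11. With mouse ERFE TAP1 differed by 0.01, HLA-F by 0.15 and HLA-E by 0.17. HLA-F was below detection on the untreated array as well, which limits its values. Among the 6 high arrays alone (2 human ERFE, 1 mouse ERFE and 3 untreated), HLA-B differed by -0.82 with human ERFE (unadjusted p = 0.0183, limma adjusted p = 0.614) and by 0.01 with mouse ERFE. TAP1 there had -0.48 with human ERFE and 0.33 with mouse ERFE. Each set left a group with a single array, so counts of passing probes are not read. Both sets were chosen after the data were seen.

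**Figure D3:**
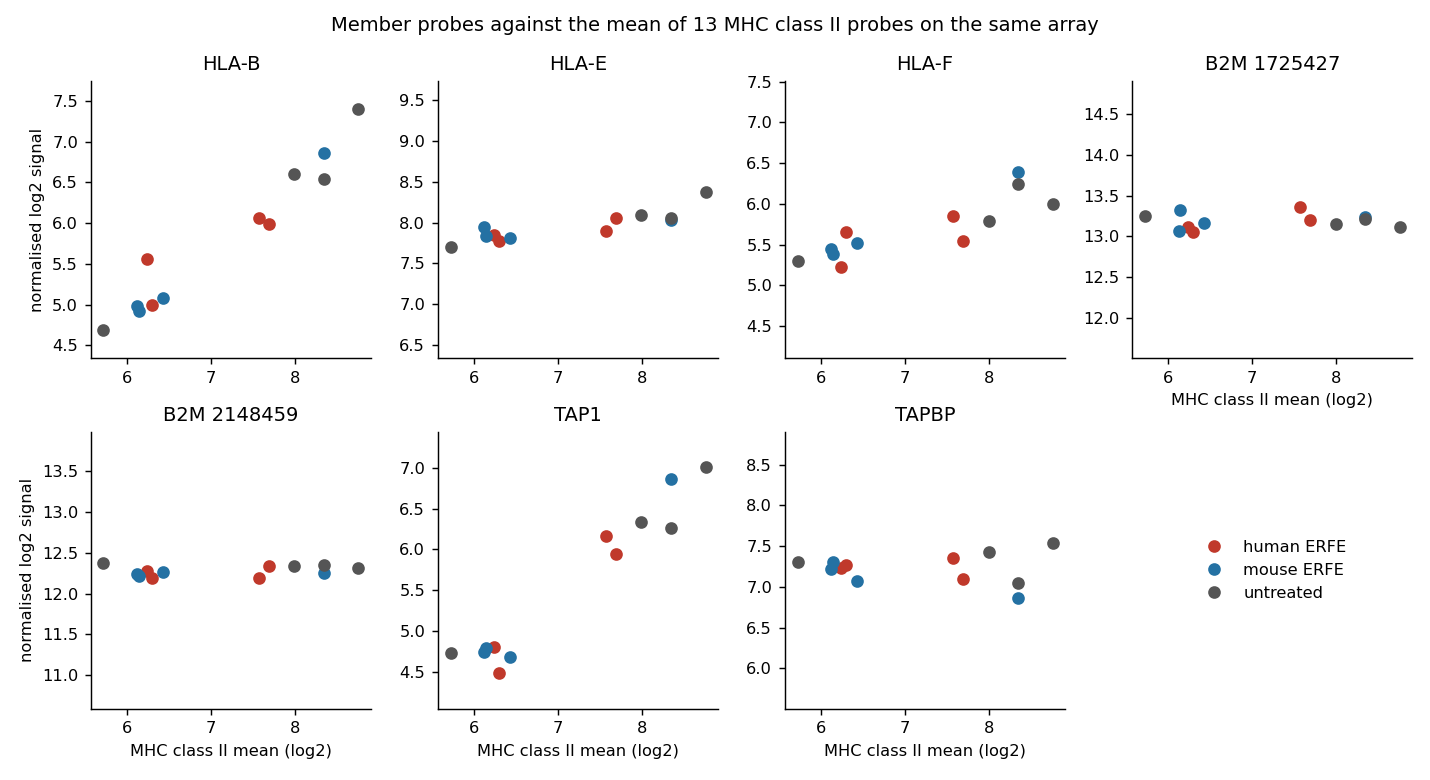
Log2 signal of each tested probe (y axis) against the mean log2 signal of 13 MHC class II probes (x axis) on the 12 arrays, coloured by group. HLA-B and TAP1 are high on the 6 arrays to the right, where the class II mean is 7.57 or more, and B2M is level across the axis.

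The number in an array's title code, whose meaning the labels do not give, divides the arrays into 4 sets. All 3 arrays of number 1 are high in class II and none of number 4 is, while numbers 2 and 3 each hold arrays of both kinds. Within number 1, HLA-B had 5.99 in human ERFE, 6.86 in mouse ERFE and 6.54 in untreated cells, and TAP1 had 5.94 in human ERFE, 6.87 in mouse ERFE and 6.27 in untreated cells. Within number 2, HLA-B had 5.56 and 6.06 in human ERFE against 5.08 in mouse ERFE cells. Within number 3, it had 4.99 in human ERFE against 7.40 and 6.60 in untreated cells, and within number 4 it had 4.99 and 4.92 in mouse ERFE against 4.69 in untreated cells. All 3 values of number 4 are below detection and have no order. The human ERFE array thus read lower in HLA-B than the untreated arrays within numbers 1 and 3, and the mouse ERFE array read higher within number 1. Each of these is a single treated array. In number 3 the human ERFE array was below detection and low in class II, while its untreated arrays were high in class II. With the number as a block HLA-B had -0.86 with human ERFE and -0.38 with mouse ERFE. TAP1 had -0.89 with human ERFE and -0.45 with mouse ERFE, and 0 members passed. Of all 18646 probes, 2 passed with human ERFE and 0 with mouse ERFE in that model.

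Genes of other cell types were measured beside these values. Of 16 class II genes 9 were tested, and 0 of them passed in any comparison, with medians of -0.68 with human ERFE and -0.70 with mouse ERFE. CD74, the chaperone of class II molecules, had -1.21 with human ERFE and -1.73 with mouse ERFE, both against untreated cells. HLA-DMB had -0.52 with human ERFE and -0.21 with mouse ERFE. HLA-DRB3, detected on all 12 arrays, was steadier, with a range of 0.74 log2 units. It had -0.15 with human ERFE and -0.04 with mouse ERFE. The summed raw signal of the list was 2968 to 6758 on human ERFE, 2687 to 11435 on mouse ERFE and 2956 to 9802 on untreated arrays. The groups overlapped, and the highest sum was on mouse ERFE array 1. Raw sums are not corrected for array brightness, and that array also had the highest median signal (186.3). After normalization the highest class II mean was on untreated array 2 (8.75). HLA-DRA, a class II chain, had 7.85 to 9.79 in human ERFE, 7.52 to 10.54 in mouse ERFE and 7.04 to 11.01 in untreated cells, while CIITA, the class II co-activator, HLA-DRB1 and HLA-DPB1 were detected on 0 arrays. Of 17 leukocyte genes 7 were tested, with list means of 5.88 to 7.17 in human ERFE, 5.90 to 7.34 in mouse ERFE and 5.77 to 7.87 in untreated cells and medians of the differences of -0.52 with human ERFE and -0.65 with mouse ERFE. Their summed raw signal was 1933 to 3379 on human ERFE, 1845 to 4335 on mouse ERFE and 2271 to 4378 on untreated arrays. Again the groups overlapped. The leukocyte-defining gene PTPRC was detected on 0 arrays, as were LAPTM5, IL2RG, CD48, CD37 and CYBB. CD53 was detected on 3 arrays, FCER1G and HCLS1 on 2 and LST1 on 1. TYROBP, a signalling adaptor of myeloid and NK cells, was detected on 7 arrays and differed by -1.02 with human ERFE and -1.24 with mouse ERFE. SRGN, a proteoglycan of secretory granules, was detected on 10 arrays and differed by -0.99 with human ERFE and -1.42 with mouse ERFE. TYROBP and SRGN had the largest falls of the 7 tested genes. ARHGDIB had -0.72 with human ERFE and -0.84 with mouse ERFE, CD52 had -0.52 and -0.65, and LCP1 had -0.32 with each. AIF1 had -0.06 with human ERFE and -0.22 with mouse ERFE. CORO1A was higher in value with human ERFE (0.07) and lower with mouse ERFE (-0.20). Of the 7 genes, 0 passed. Of 16 dendritic cell and macrophage genes 8 were tested, with list means of 7.22 to 7.98 in human ERFE, 7.14 to 7.60 in mouse ERFE and 7.21 to 8.76 in untreated cells, and medians of the differences of -0.42 with human ERFE and -0.49 with mouse ERFE. FCER1A, an IgE receptor chain, was detected on 5 arrays and had -1.25 with human ERFE and -1.26 with mouse ERFE, and CCL22, a chemokine of dendritic cells and macrophages, was detected on 5 arrays and had -0.88 with human ERFE and -1.85 with mouse ERFE. Other genes of the list did not follow these sizes. CD14 had -0.30 with human ERFE and -0.31 with mouse ERFE, and CD68 had -0.08 and -0.01. LYZ, the lysozyme gene, went the other way, with 0.18 with human ERFE and 0.09 with mouse ERFE. CD1C and CSF1R were detected on 3 arrays each, CD163, MRC1 and CCL17 on 0, and 0 genes of the list passed. Of 13 B, T and NK cell genes 4 were tested, with list means of 6.91 to 7.27 over all arrays. The part of other cells' RNA in the HLA-B and TAP1 values was not tested.

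Of the genes that work beside the members, those that make and trim peptides showed 0 calls in every comparison (limma, over all probes). The immunoproteasome and trimming list had 5 of 8 genes tested, with medians of 0.06 with human ERFE and -0.02 with mouse ERFE, against 0.01 and 0.00 over all 10891 genes. PSME1 and PSME2, subunits of a proteasome activator, had 0.12 and 0.06 with human ERFE and 0.09 and 0.19 with mouse ERFE. PSMB10, a catalytic subunit of the immunoproteasome, had -0.13 with human ERFE and -0.14 with mouse ERFE, and ERAP2, which trims peptides in the endoplasmic reticulum, had -0.28 and -0.02. The other catalytic subunits, PSMB8 and PSMB9, which lie beside TAP1 and TAP2 in the genome, were detected on 1 and 2 arrays. The 4 constitutive proteasome genes listed were all tested, with medians of 0.03 with human ERFE and -0.06 with mouse ERFE. Of 7 loading chaperones and class I-like genes 3 were tested, with TAPBPL, a tapasin relative, at 0.32 with human ERFE and 0.27 with mouse ERFE. The chaperone calreticulin (CALR) had 0.00 with human ERFE and -0.13 with mouse ERFE, calnexin (CANX) had 0.04 with each, and the list medians were 0.04 and 0.04. The mean of the 6 tested probes of the 5 immunoproteasome and trimming genes lay between 9.41 and 9.56 on all 12 arrays. ERAP2 alone ranged over 1.05 and TAPBPL over 1.18 log2 units.

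Regulators of class I transcription had 17 of 20 genes tested, 0 called, and medians of 0.01 with human ERFE and -0.02 with mouse ERFE. JAK1, a kinase of interferon receptors, had 0.88 with human ERFE (limma adjusted p = 0.483) and 0.64 with mouse ERFE (limma adjusted p = 0.382). RELA, an NF-kB subunit, had 0.60 with each (limma adjusted p = 0.49 and 0.243). IRF2, an interferon regulatory factor, had -0.19 with human ERFE and -0.64 with mouse ERFE, and IRF9, the DNA-binding part of the interferon-activated complex, had -0.30 with human ERFE and -0.59 with mouse ERFE. The regulators differed in range over the 12 arrays, from 0.20 (IFNGR1, a receptor chain for interferon gamma) to 2.09 (JAK1) log2 units. Of 20 interferon-stimulated genes 18 were tested. Their list mean was 6.17 to 6.86 in human ERFE, 6.21 to 7.27 in mouse ERFE and 6.12 to 7.33 in untreated cells, and the medians of the differences against untreated cells were -0.28 with human ERFE and -0.31 with mouse ERFE, with 0 calls. IRF7, a regulator of interferon genes, had -0.55 with human ERFE and -0.62 with mouse ERFE, and OAS3, an interferon-induced RNA sensor, had -0.35 and -0.60. Their ranges over the 12 arrays ran from 0.25 (GBP2) and 0.30 (IFI35) to 3.28 (IFIT2) and 4.55 (MX1) log2 units, so the genes of this list did not vary alike.

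**Figure D4:**
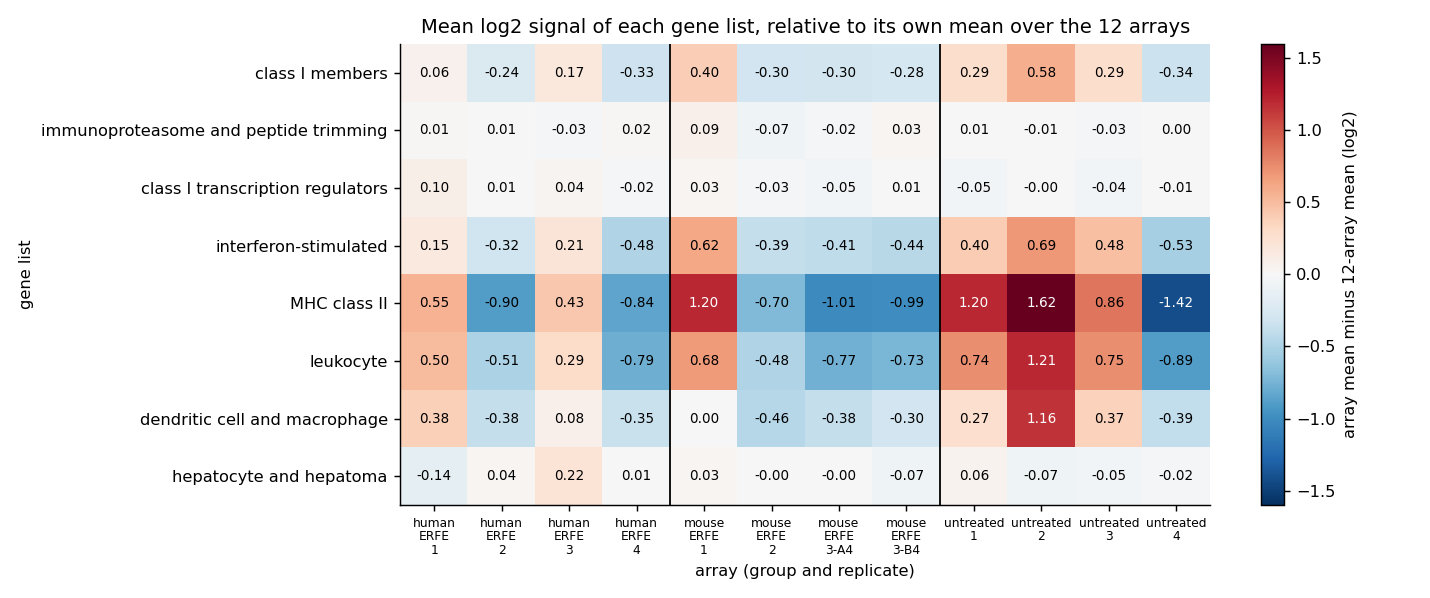
Mean log2 signal of each gene list on each array minus its own mean over the 12 arrays, with red above and blue below. The class I members, interferon-stimulated, class II and leukocyte rows are above their means on human ERFE arrays 1 and 3, mouse ERFE array 1 and untreated arrays 1 to 3, while the immunoproteasome, regulator and hepatocyte rows stay within 0.22 of their means.

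Among 10890 other genes, those whose log2 signal was most like a member's over the 12 arrays were found by Pearson's r, given as a description, since the arrays fall into 2 sets and share one normalization. For HLA-B they were OAS2, an interferon-induced RNA sensor (0.977), HLA-DRA (0.972) and TAP1 (0.964). For TAP1 they were OAS2 (0.989), the interleukin-1 receptor antagonist IL1RN (0.973) and the phagocyte oxidase subunit NCF1 (0.972). HLA-F was most like FPR3, a formyl peptide receptor (0.954), the interferon-stimulated gene IFI44 (0.931) and FGL2 (0.930). HLA-E was most like TMSB4X (0.928), the tyrosine kinase gene LYN (0.925) and RGS1 (0.921). B2M and TAPBP had other neighbours, TMEM168 (0.826), KATNA1 (0.823) and FHIP1A (0.794) for B2M, and PIK3CD (0.893), TKT (0.878) and SAPCD2 (0.878) for TAPBP.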

How the data were processed

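Total RNA of Huh7 cells was hybridised as biotinylated cRNA, per the labels' protocols. Each probe has a deposited signal intensity, linear per the file headers and the values, and a deposited detection p-value set against negative controls. Lumi and limma are named in the submitters' processing notes without a role, and the background handling is not given in the sources used here. The deposited table described as normalized held the same intensity values (567876 of 567876 equal), so it was not used.

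Background correction (negative controls taken from detection p-values, offset 16) and quantile normalization used neqc (limma 3.58.1 in R 4.3.3). The 18646 probes detected at p under 0.05 on 4 or more arrays were kept. All 12 arrays entered a 3-group model, probe by probe (lmFit, then eBayes), with Benjamini-Hochberg adjustment over all kept probes and a threshold of 0.05. For the differences, ranges and calls of lists, a gene is its probe with the highest mean. List means and summed signals take all tested probes of the list. The fit was tested on simulated data. The members, gene lists, tests and alternatives were chosen with earlier results of these data known. Every member was named, with the 3 genes of highest Pearson's r for each tested one. Of each list, up to 4 genes with the smallest p against untreated cells could be named; other genes of a list, undetected ones among them, were named after their values were seen. Alternatives covered background correction, offset, normalization, filter, probe rule, blocks, array weights, covariates and left-out arrays. Arrays have no read depth, and their number limits the precision.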

Additional observations from a re-analysis of the deposited data

Results flagged for a closer look

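Among 45 groups of 4 arrays (15 member probes in 3 groups), 4 held an array set far apart from the other 3 of its group by Dixon's test at the 95% level, which chance alone gives in about 1 group in 20. Mouse ERFE array 1 accounts for 3 of the 4, namely HLA-B at 6.86 where the nearest mouse ERFE array had 5.08, TAP1 at 6.87 where the nearest had 4.79, and HLA-F (ILMN_2186806) at 6.39 where the nearest had 5.52. It is the 1 mouse ERFE array high in MHC class II transcripts, with a class II mean of 8.34 against 6.12 to 6.43 on the other 3. These 3 flags share an array and are not separate observations. The fourth was the HLA-C probe detected on 0 arrays (ILMN_2150787), at 4.88 on mouse ERFE array 2 where the nearest had 4.48, which lies within background.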

How the results depend on the processing

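The number of member probes called was 0 in each of the 3 comparisons under every alternative run, so no call was lost or gained. The number with an unadjusted limma p under 0.05 stayed 0 in most alternatives but not all. Without untreated array 4 it was 2 of 7 with human ERFE and 3 of 7 with mouse ERFE. All probes under that p then numbered 1836 and 2550 of 18646, against 1239 and 1992 in the main fits. With mouse ERFE it was also 2 without mouse ERFE array 1 and 3 with the replicate block. There 1759 and 2326 of all probes were under that p. It was 1 with mouse ERFE without untreated array 1 (1747 of all probes). With no detection filter it was 1 of 15 in each comparison, against 2644, 3529 and 2378 of 47323 probes. Sets that left a group with 1 array are not counted here. HLA-B and TAP1 against untreated cells kept negative values in most alternatives, with HLA-B from -1.20 to 0.59 with human ERFE and from -1.38 to 0.31 with mouse ERFE, and TAP1 from -1.19 to -0.03 and from -1.35 to 0.33. HLA-B was above 0 with a leukocyte covariate and without the 6 arrays high in class II in both comparisons, and among those 6 arrays alone with mouse ERFE. On 5 of the 6 arrays left without them HLA-B is below detection. The cause was not tested. With the replicate block, 0 members passed in each comparison, HLA-B had -0.66 with human ERFE and -1.15 with mouse ERFE, and 4, 2 and 1 of all probes passed, against 17, 23 and 1 without it. The labels do not say whether replicate numbers pair the arrays. Of 12 same-numbered pairs 2 correlated above 0.1 (-0.32 to 0.32), and pairs of different number reached 0.38. Correlations of this kind cannot show whether the arrays were paired. Leaving out 1 array at a time gave 0 members called each time, with a lowest adjusted p of 0.17 (HLA-B, mouse ERFE, without untreated array 4), while the count over all probes reached 85 with human ERFE and 272 with mouse ERFE without that array. With no detection filter, HLA-C (ILMN_1721113) had -0.35 with human ERFE (limma adjusted p = 0.878) and TAP2 (ILMN_1759250) 0.29 with mouse ERFE (limma adjusted p = 0.471), both near background. Signal close to background limits HLA-B, HLA-C, HLA-F, TAP1, TAP2 and NLRC5, whose low values carry no order.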
